A study of Mus musculus with 6 samples.

Results

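Adrenergic receptors and the proteins that act directly downstream of them were examined in the inguinal white fat (iWAT) of mice with an *Hlx* transgene and of their littermate controls. The 9 genes were chosen by name from the 19445 gene loci of the deposited table: the receptors *Adrb1*, *Adrb3*, *Adra1a* and *Adra2a*, the G protein gene *Gnas*, the G protein regulator gene *Rgs2*, and the kinase, coactivator and transcription factor genes *Sik1*, *Crtc3* and *Creb1*. Each was found once in the table, and all 9 passed the expression filter, a mean over 1 FPKM in at least 1 genotype. FPKM divides the reads of a gene by its transcript length and by the size of the library, so that levels can be set side by side between genes. RNA-Seq was performed on iWAT of 3 transgenic and 3 wild-type mice of 12 weeks, labelled male and with no treatment given, with 1 library per mouse. The transgenic mice carry the *Hlx* cDNA behind the *aP2* (*Fabp4*) promoter, which is active in brown and white fat, on a C57BL/6 × SJL hybrid background backcrossed to C57BL/6, and the controls lack the transgene. The libraries hold RNA of the whole tissue, so fewer cells of a type and less RNA per cell cannot be told apart.

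Noradrenaline released by sympathetic nerves acts on fat through several receptor classes. The β receptors couple to the stimulatory G protein encoded by *Gnas*, which activates adenylyl cyclase, and the resulting cAMP activates protein kinase A, lipolysis and thermogenic transcription. The α2 receptors couple to inhibitory G proteins and oppose this, whereas the α1 receptors couple to Gq proteins and raise calcium. Protein kinase A phosphorylates the transcription factor Creb1 and, by inhibiting salt-inducible kinases such as Sik1, lets CRTC coactivators enter the nucleus. In rodents the β3 receptor is the main β receptor of fat, and β3 agonists induce browning of iWAT.

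Creb1 binds the cAMP response element, whose full letters are TGACGTCA and whose core is TGACG. The 250 bases before the RefSeq start (build GRCm38.p6) were searched for both on both strands, where a core inside a full element counts as the same place. Windows were given for 6 of the 9 genes. The window of *Adrb1*, which rose, that of *Adra2a*, a receptor of the opposing class, and that of *Rgs2*, a regulator of G proteins, are shown because each holds a core. They lie at chr19:56721867-56722116 (plus strand), chr19:54045009-54045258 (plus strand) and chr1:144004150-144004399 (minus strand), read 5′ to 3′ on the strand of the gene, with the core or its complement in capitals.
Adrb1: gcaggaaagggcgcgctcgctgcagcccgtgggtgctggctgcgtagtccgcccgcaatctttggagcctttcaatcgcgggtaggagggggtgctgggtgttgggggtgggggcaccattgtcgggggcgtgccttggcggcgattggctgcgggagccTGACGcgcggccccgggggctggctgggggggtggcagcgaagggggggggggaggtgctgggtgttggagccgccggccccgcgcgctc
Adra2a: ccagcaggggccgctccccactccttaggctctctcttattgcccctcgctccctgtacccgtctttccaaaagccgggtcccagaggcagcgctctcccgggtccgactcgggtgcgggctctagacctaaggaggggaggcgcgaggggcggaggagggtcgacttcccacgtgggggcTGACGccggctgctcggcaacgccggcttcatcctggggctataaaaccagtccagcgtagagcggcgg
Rgs2: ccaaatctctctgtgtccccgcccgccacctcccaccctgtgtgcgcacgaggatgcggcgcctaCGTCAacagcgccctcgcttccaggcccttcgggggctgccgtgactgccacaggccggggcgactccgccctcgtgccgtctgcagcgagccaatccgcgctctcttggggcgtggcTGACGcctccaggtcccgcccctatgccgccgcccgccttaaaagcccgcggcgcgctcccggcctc
Counted from the RefSeq start, the core began 90 bases before the start in *Adrb1* and 69 bases before it in *Adra2a*, where it falls inside the locus of the table (from 54045181) and of GENCODE (from 54044151), and 185 and 67 bases before it in *Rgs2*. *Gnas* was the other gene with a core, in 3 of its 4 windows, and none was in those of *Crtc3* and *Creb1*. The *Gnas* windows that begin at 174327499 and 174327518 overlap and hold the same core. The core was in 17.8% of all 32851 windows of this length, and the full element, in 1.55% of them, was in none of the windows of these genes. A match is a run of letters only, and binding was not measured here.

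The targeted gene *Hlx* was at 79.6 to 110 FPKM in the transgenic mice and at 6.88 to 8.14 FPKM in the controls, and reads of the transgene and of the endogenous gene cannot be told apart. *Xist*, an RNA of the inactive X chromosome, was at 20.2 FPKM or more in all 6 libraries and 28 Y-chromosome loci were listed at 0 throughout, which goes against the label of male mice. Relative depth, taken from the spacing of the smallest FPKM values with wild-type replicate 3 as 1, ranged from 0.692 to 1.14 in the transgenic and from 0.943 to 1.41 in the wild-type libraries, and the absolute depth is unknown. Adipocyte markers were high in both genotypes, with a summed level of the 7 matched markers between 29137 and 34490 FPKM in transgenic and between 25304 and 31273 FPKM in wild-type mice. Most of this sum was *Fabp4*, at 24561 to 29363 FPKM in transgenic and 19297 to 23539 FPKM in wild-type mice. Of the 7 genes, 2 were lower (*Adipoq* and *Lpl*) and 5 were not called, with 3 log2 fold changes positive and 4 negative. The 6 brown and beige markers summed to between 6164 and 7950 FPKM in transgenic and between 609.7 and 1049 FPKM in wild-type mice. The 7 sympathetic nerve markers examined were each under 1 FPKM in every mouse, and *Th* and *Dbh*, enzymes of catecholamine synthesis, were listed at 0 throughout. All were below the expression filter, and the presence or amount of nerve in the tissue was not tested. The 7 macrophage markers summed to between 358 and 510 FPKM in transgenic and between 754 and 955 FPKM in wild-type mice, and 7 of 7 had a negative log2 fold change. Of these, 4 were called lower. The 7 matched skeletal muscle markers summed to 668 FPKM in transgenic replicate 2, against 7.23 to 137 FPKM in the other mice. Of the other marker lists, 1 of 8 smooth muscle genes and 1 of 7 lymphocyte genes were lower, 2 of 8 endothelial genes were higher and 1 was lower, and none of the 6 fibroblast and 6 epithelial genes was called. Log2 fold changes were negative for 8 of 8 smooth muscle, 7 of 7 lymphocyte, 6 of 6 fibroblast and 6 of 6 epithelial genes, and positive for 7 of 7 skeletal muscle genes, of which none was called. The part of these cells in the results that follow was not tested, other than by leaving out mice.

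Of the 9 genes, 3 were higher in transgenic iWAT (*Adrb1*, *Adra1a* and *Gnas*) and 2 were lower (*Adrb3* and *Crtc3*) at an adjusted p under 0.05 (limma on log2(FPKM + 1), Benjamini-Hochberg adjustment over 11692 loci, n = 3 mice per genotype). Of all loci tested, 11.6% were higher and 7.03% were lower. The remaining 4 genes, *Adra2a*, *Rgs2*, *Sik1* and *Creb1*, did not pass the test. The genotypes did not overlap at 6 of the 9 genes, the 5 called genes and *Adra2a*, of which 3 were above and 3 below the controls. Of all loci tested, 22.8% lay wholly above and 20.1% wholly below, 42.9% in all. *Adra2a* passed the expression filter only through the wild-type mice, where it is higher. With 3 mice against 3, an exact permutation test cannot give a two-sided p under 0.1, so it adds nothing for a single gene. The calls of *Adrb1* and *Adra1a* were kept in all 14 other fits, and those of *Adrb3*, *Gnas* and *Crtc3* rested on all or nearly all of the 6 mice.

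**Figure D1:**
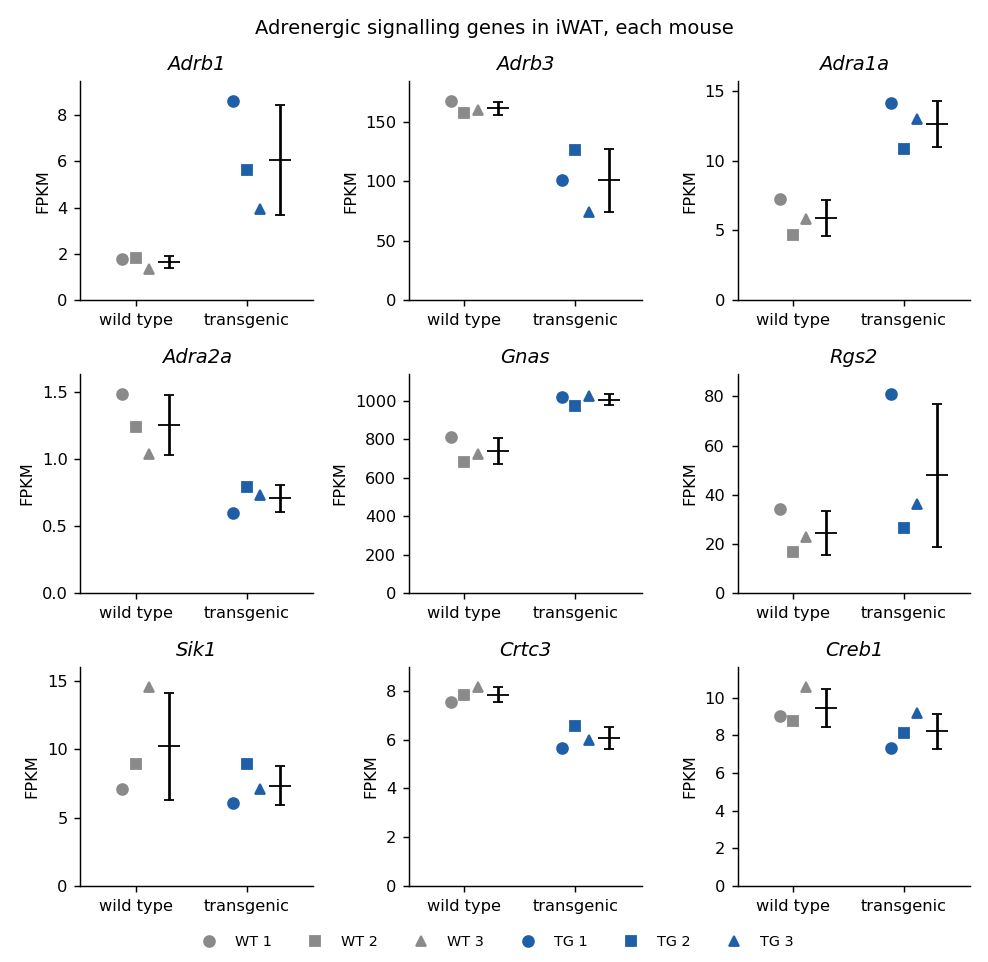
FPKM of the 9 genes (vertical axes, each from 0) in each wild-type (grey) and transgenic (blue) mouse, with symbols for replicates 1 to 3 and the mean ± SD (n = 3) in black beside them. The transgenic values lie wholly above the wild-type values for *Adrb1*, *Adra1a* and *Gnas*, wholly below them for *Adrb3*, *Adra2a* and *Crtc3*, and overlap for *Rgs2*, *Sik1* and *Creb1*.

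*Adrb1*, the β1-adrenergic receptor, rose the most of the 9 genes. Its level was 8.60, 5.62 and 3.94 FPKM in transgenic replicates 1 to 3 and 1.80, 1.81 and 1.34 FPKM in the wild-type replicates. The transgenic mice differed among themselves by more than the wild-type mice did, yet the lowest of them was above the highest wild-type mouse. The means were 6.05 ± 2.36 and 1.65 ± 0.270 FPKM (SD, n = 3 each), a ratio of 3.67. On the log2 scale it rose by 1.36 ± 0.23 (SE; adjusted p = 0.00971, limma), staying between 1.11 and 1.59 whichever mouse was left out (adjusted p up to 0.0403). The locus listed for the gene, on chromosome 19 of mm10 from 56722371 to 56724862, is shorter than the gene of the GENCODE M21 annotation (56722199 to 56733113), and reads outside it may not have been counted.

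*Adrb3*, the β3-adrenergic receptor, was the most abundant of the adrenergic receptors described here in every mouse, and it was lower in transgenic iWAT. It was listed at 101, 127 and 74.2 FPKM in transgenic replicates 1 to 3 and at 168, 157 and 160 FPKM in the wild-type replicates. The wild-type mice were close together, and all 3 transgenic mice lay below them, with replicate 3 the lowest and replicate 2 nearest to the controls. The means were 100.8 ± 26.2 and 162 ± 5.43 FPKM (SD, n = 3 each), a ratio of 0.624 and a log2 fold change of -0.71 ± 0.18 (SE; adjusted p = 0.0384, limma). The call was lost without transgenic replicate 1 (adjusted p = 0.0849, limma) or 3 (0.0631, with a log2 fold change of -0.51) and without wild-type replicate 1 (0.093), 2 (0.0878) or 3 (0.103), although the direction stayed the same. It was also lost without the filter on low values (adjusted p = 0.0648, limma) and with the replicate number as a block (0.0514). The locus, on chromosome 8 from 27225701 to 27240307, holds an antisense gene in the GENCODE annotation (*Gm45470*), and the library kit does not mark strand, so reads of both cannot be told apart. In that annotation *Adrb3* itself reaches to 27250616, and reads outside the locus may not have been counted.

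*Adra1a*, the α1A-adrenergic receptor, which couples to Gq, was higher in transgenic iWAT. Transgenic replicates 1 to 3 had 14.1, 10.9 and 12.9 FPKM and the wild-type replicates 7.21, 4.69 and 5.80 FPKM. No transgenic value fell within the wild-type range, and the spread was similar in both genotypes. The means were 12.6 ± 1.63 and 5.90 ± 1.27 FPKM (SD, n = 3 each), a ratio of 2.14. On the log2 scale it rose by 0.99 ± 0.15 (SE; adjusted p = 0.00696, limma), ranging from 0.86 to 1.12 whichever mouse was left out (adjusted p up to 0.0307). The locus lies on chromosome 14 from 66635257 to 66740011. In the GENCODE annotation the gene reaches to 66771168, and reads outside the locus may not have been counted.

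*Adra2a*, the α2A-adrenergic receptor, an inhibitor of adenylyl cyclase in fat cells, was near the expression filter and passed it only through the wild-type mice. It had 0.595, 0.790 and 0.734 FPKM in transgenic replicates 1 to 3 and 1.48, 1.24 and 1.04 FPKM in the wild-type replicates. The genotypes did not overlap, with a ratio of mean FPKM of 0.564, but the log2 fold change of -0.40 ± 0.13 (SE) did not pass the test (limma adjusted p = 0.0767). The 95% interval of the change was -0.71 to -0.09. On this scale the change of so low a gene is understated, and without the filter the adjusted p was 0.0443 (limma), with a range from 0.0398 to 0.516 over the other fits. The locus is on chromosome 19 from 54045181 to 54048982, and the gene of the GENCODE annotation starts earlier, at 54044151.

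Other adrenergic receptor genes were examined beside these. *Adra1d*, another Gq-coupled receptor, had 11.1, 7.71 and 8.78 FPKM in transgenic and 5.33, 3.34 and 4.92 FPKM in wild-type mice, a log2 fold change of 0.89 ± 0.18 (SE; adjusted p = 0.0169, limma). All transgenic values of *Adra1d* were above the wild-type values, but its locus in the table is shared by 10 symbols, so the assignment of its reads is uncertain. Without transgenic replicate 3 its adjusted p was 0.0523 (limma). *Adra1b*, *Adra2b* and *Adra2c* were under 0.53 FPKM in every mouse and were not tested.

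The order of these receptors by mean FPKM was the same in both genotypes, with other gaps between neighbours. In wild-type mice, *Adrb3* was followed by *Adra1a* (mean 5.90 FPKM) and *Adra1d* (4.53 FPKM), whose ranges overlapped, and then by *Adrb1* (1.65 FPKM) and *Adra2a* (1.25 FPKM), which overlapped each other. In transgenic mice, *Adrb3* was followed by *Adra1a* (12.6 FPKM) and *Adra1d* (9.19 FPKM), which overlapped, and by *Adrb1* (6.05 FPKM), whose range overlapped that of *Adra1d*. *Adra2a* was below these with 0.706 FPKM.

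The make-up of receptor RNA was computed for each mouse as the percent of the FPKM summed over the 8 receptor genes named here. *Adrb3* held 74.5%, 83.2% and 73.6% in transgenic replicates 1 to 3 and 91.1%, 93.1% and 92.2% in the wild-type replicates. Every transgenic mouse was below every control, with a mean difference of -15.02 percentage points (77.1 ± 5.31% against 92.1 ± 0.986%, SD, n = 3 each; p = 0.1 by exact permutation, two-sided). Being built from the FPKM of the same genes, this share describes their changes and is no separate test. The share of the α1 receptors, with the uncertain *Adra1d* among them, was 17.6 ± 4.71% in transgenic and 6.16 ± 1.00% in wild-type mice (SD, n = 3 each), again with no overlap. *Adrb1* held 4.64 ± 1.45% and 0.942 ± 0.154%. The sum itself was lower in transgenic mice (129.7 ± 26.2 against 175.4 ± 7.75 FPKM, SD, n = 3 each). These shares therefore rose by more than the FPKM of the genes did. With *Adra1d* left out of the sum, the share of *Adrb3* was still lower, and fell by 11.4 percentage points.

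The ratio of *Adrb3* to *Adrb1* FPKM, a measure chosen after the values were seen, was 11.8, 22.5 and 18.8 in transgenic replicates 1 to 3 and 93.1, 86.7 and 119 in the wild-type replicates. The ranges were far apart, and the ratio of *Adrb1* to *Adrb3* was 5.77-fold higher in transgenic mice by geometric means, a description of the opposite changes of both genes and no separate test. The ratio of the summed FPKM of *Adrb1* and *Adrb3* to that of the α2 receptors, by contrast, was 160, 150.4 and 102 in transgenic and 104, 121 and 142 in wild-type mice. These ranges overlapped, and the difference of 0.15 on the log2 scale was within the spread of the mice (two-sided p = 0.6 by exact permutation). It was 0.02 without transgenic replicate 1 and 0.35 without transgenic replicate 3, and it was also 0.07 without transgenic replicate 2, 0.03 without wild-type replicate 1 and 0.26 without wild-type replicate 3.

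**Figure D2:**
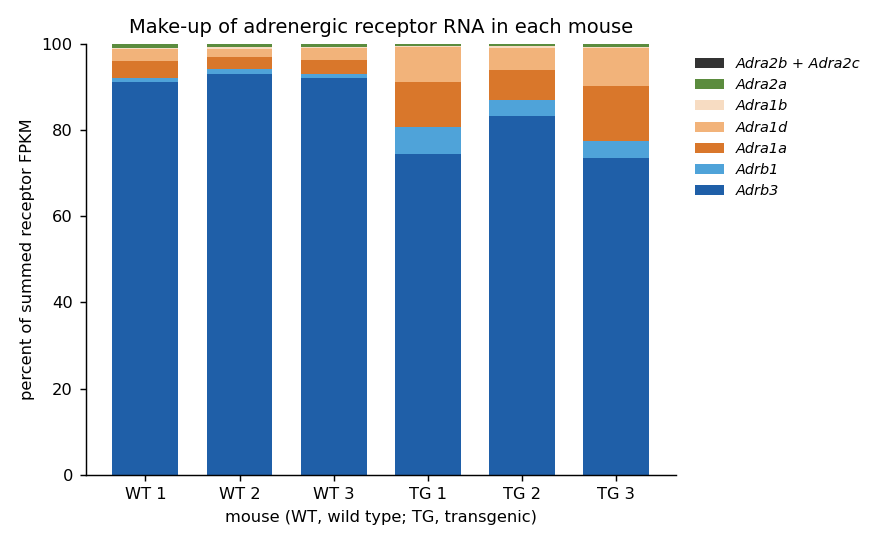
Percent of the FPKM summed over the 8 adrenergic receptor genes named here (vertical axis, 0 to 100) held by each receptor in each wild-type (WT) and transgenic (TG) mouse, with β receptors in blue, α1 in orange and α2 in green and black. *Adrb3* fills 91.1% to 93.1% of the wild-type bars and 73.6% to 83.2% of the transgenic bars, and the *Adrb1*, *Adra1a* and *Adra1d* segments are wider in the transgenic mice.

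*Gnas*, which encodes the stimulatory G protein α subunit that carries the signal of the β receptors to adenylyl cyclase, was by far the most abundant of the 9 genes. It had 1022, 972 and 1026 FPKM in transgenic replicates 1 to 3 and 814, 683 and 725 FPKM in the wild-type replicates. The transgenic mice were close together and all above the controls, with a ratio of mean FPKM of 1.36. This was a log2 rise of 0.45 ± 0.12 (SE; adjusted p = 0.0458, limma). The call was lost in 9 of 14 other fits, with quantile normalization (log2 fold change 0.20, adjusted p = 0.194), without the filter on low values (0.101), with the replicate block (0.0515) and without each of the 6 mice, namely transgenic replicate 1 (adjusted p = 0.101), 2 (0.071) or 3 (0.129) and wild-type replicate 1 (0.0509), 2 (0.146) or 3 (0.129). *Gnas* is an imprinted locus with several promoters, on chromosome 2 from 174281236 to 174346779, and the value sums its transcripts. *Nespas*, an antisense RNA of the same locus, was listed at 0.0411 FPKM or less, and *Gm20721* is also annotated on the opposite strand.

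*Rgs2*, a GTPase-activating protein that shortens Gq signals and is induced by cAMP in several cell types, varied widely among the mice. It was listed at 81.1, 26.6 and 36.4 FPKM in transgenic replicates 1 to 3 and at 34.4, 16.6 and 22.7 FPKM in the wild-type replicates. The high mean of the transgenic mice rested on replicate 1, and replicate 2 lay below the highest control. The means were 48.0 ± 29.1 and 24.6 ± 9.05 FPKM (SD, n = 3 each). The log2 fold change of 0.84 ± 0.42 (SE) did not pass the test (limma adjusted p = 0.197), its 95% interval was -0.16 to 1.83, and without transgenic replicate 1 it was 0.39 (adjusted p = 0.429).

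*Sik1*, a kinase induced by Creb1 that restrains CRTC coactivators, had 6.04, 8.88 and 7.07 FPKM in transgenic replicates 1 to 3 and 7.11, 8.90 and 14.6 FPKM in the wild-type replicates. Apart from wild-type replicate 3, which was the highest, the genotypes covered much the same range. The log2 change was -0.38 ± 0.24 (SE; 95% interval -0.96 to 0.19; adjusted p = 0.296, limma), and it was -0.12 without wild-type replicate 3 (adjusted p = 0.679).

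*Crtc3*, a coactivator of Creb1, had 5.66, 6.57 and 5.97 FPKM in transgenic replicates 1 to 3 and 7.53, 7.82 and 8.17 FPKM in the wild-type replicates. The replicates were close together and the genotypes did not overlap, although the difference was small, with a ratio of mean FPKM of 0.774. In log2 terms the change was -0.32 ± 0.08 (SE; adjusted p = 0.0372, limma). The call was kept without transgenic replicate 2 and lost without transgenic replicate 1 (adjusted p = 0.0923) or 3 (0.107) and without wild-type replicate 1 (0.07), 2 (0.101) or 3 (0.116). With each mouse centred on its adipocyte markers, of which *Adipoq* and *Lpl* were lower in transgenic mice, the change was -0.13 (adjusted p = 0.646), and the call was also lost without the filter (0.0653) and with the replicate block (0.0633). An antisense gene, *Gm15880*, is annotated within its locus.

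*Creb1*, the transcription factor at the end of this path, was listed at 7.32, 8.11 and 9.21 FPKM in transgenic replicates 1 to 3 and at 9.02, 8.77 and 10.6 FPKM in the wild-type replicates. The ranges overlapped, and the log2 fold change was -0.18 ± 0.11 (SE; 95% interval -0.44 to 0.07; adjusted p = 0.267, limma). Its phosphorylation, by which cAMP acts on it, cannot be read from RNA.

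**Figure D3:**
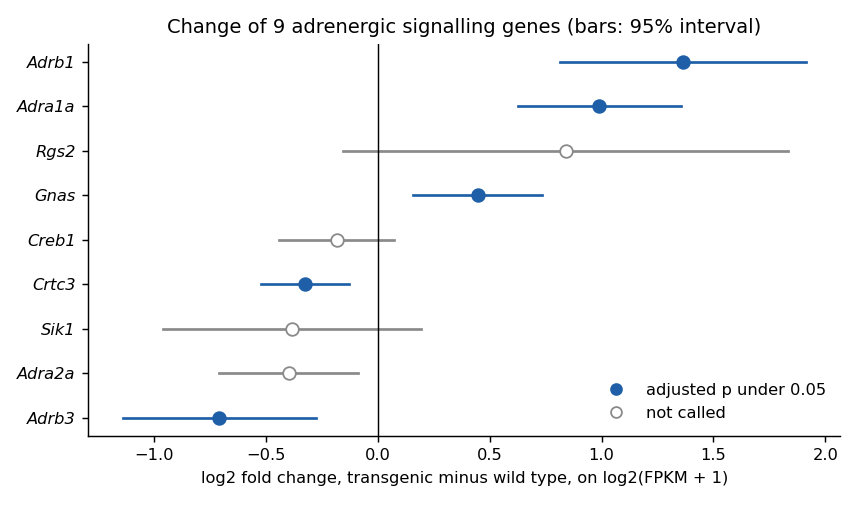
The log2 fold change of each gene between transgenic and wild-type iWAT (horizontal axis, on log2(FPKM + 1), n = 3 mice per genotype) with its 95% interval as a bar, filled blue where the adjusted p was under 0.05. *Adrb1* at 1.36 and *Adra1a* at 0.99 are highest, *Adrb3* at -0.71 is lowest, and the widest interval is that of *Rgs2*.

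The other genes of the pathway were taken from lists of G protein subunits, RGS proteins, receptor kinases and arrestins, CREB, CRTC and SIK proteins, and CREB target genes, 71 genes with the other receptors. The table let 63 of them be tested, and 9 rose and 6 fell in transgenic iWAT (limma, adjusted p under 0.05), or 23.8%, where 18.6% of all loci tested were called. Their median log2 fold change was -0.0073, beside -0.01 for all loci tested. The share called was near that of all loci tested.

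Among 20 tested G protein subunit genes, 3 were higher and 2 lower, and the list's median was -0.0045 on the log2 scale. *Gnao1*, an α subunit of the inhibitory class, was 8.21 FPKM on average in transgenic and 1.94 FPKM in wild-type mice, a log2 fold change of 1.65 ± 0.09 (SE; adjusted p = 0.000231, limma). *Gnai1*, another inhibitory α subunit, went the other way, from 55.1 FPKM in wild-type to 26.4 FPKM in transgenic mice, a log2 fold change of -1.03 ± 0.08 (SE; adjusted p = 0.000715, limma). Both kept their call in all 14 other fits, and *Gnao1* was taken from the highest of 3 rows. *Gnb5*, a β subunit that pairs with some RGS proteins, was lower (log2 fold change -0.82, adjusted p = 0.0175, limma), and *Gna12* was higher (0.35, adjusted p = 0.0313). *Gnb5* lost its call in 3 of 14 other fits (adjusted p up to 0.0637) and *Gna12* in 5 (up to 0.1004). The values of *Gnb5* were taken from the higher of 2 rows. The 15 other subunit genes tested were not called. Of 12 tested RGS genes, *Rgs14* alone was called, and lower (log2 fold change -0.53, adjusted p = 0.0352, limma), in 7 of 14 other fits as well (adjusted p up to 0.287 in the others), and the median of the list was -0.22.

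Receptor kinases and arrestins end the signal of an active receptor. *Grk3*, listed as *Adrbk2* and β-adrenergic receptor kinase 2, had 27.6, 21.2 and 21.8 FPKM in transgenic replicates 1 to 3 and 6.19, 4.77 and 6.19 FPKM in the wild-type replicates. Every transgenic mouse was several times above every control. The log2 rise was 1.87 ± 0.13 (SE; adjusted p = 0.000581, limma), larger than that of any receptor gene named here, and the call was kept in all 14 other fits. *Grk5* was higher (log2 fold change 0.43, adjusted p = 0.0375, limma), and *Grk6* and *Arrb2* were lower (-0.49 and -0.36, adjusted p = 0.0383 and 0.0438). These 3 lost their call in 5, 6 and 8 of 14 other fits (adjusted p up to 0.115, 0.315 and 0.562), and the 3 other genes of the list, whose median was -0.05, were not called.

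Of 13 CREB, CRTC and SIK genes tested, *Atf2*, a factor of the CREB/ATF family, was the other called gene beside *Crtc3*, and it was higher (log2 fold change 0.47, adjusted p = 0.0105, limma). Of 15 genes known to be induced through CREB, 3 were higher and 1 was lower. *Cebpb*, an adipogenic transcription factor, and *Ppargc1a*, the coactivator Pgc-1α of mitochondrial biogenesis, had log2 fold changes of 0.57 and 0.51 (adjusted p = 0.00451 and 0.0122, limma). They kept their call in all 14 other fits, as did *Atf2*. *Nr4a2*, an immediate early gene, was higher (0.93, adjusted p = 0.0198, limma) and *Gem*, a small GTPase, was lower (-0.44, adjusted p = 0.0478), and they lost their call in 3 and 9 other fits (adjusted p up to 0.0698 and 0.307). The 11 other targets were not called. The medians of the CREB, CRTC and SIK list and of the target list were -0.13 and 0.19. Those of the G protein, receptor kinase and CREB, CRTC and SIK lists turned positive (0.19, 0.15 and 0.06) with adipocyte marker centring, which moved the median of all loci from -0.01 to 0.18. With each mouse centred on its adipocyte markers, the lower genes *Rgs14*, *Grk6*, *Arrb2* and *Gem* were not called.

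**Figure D4:**
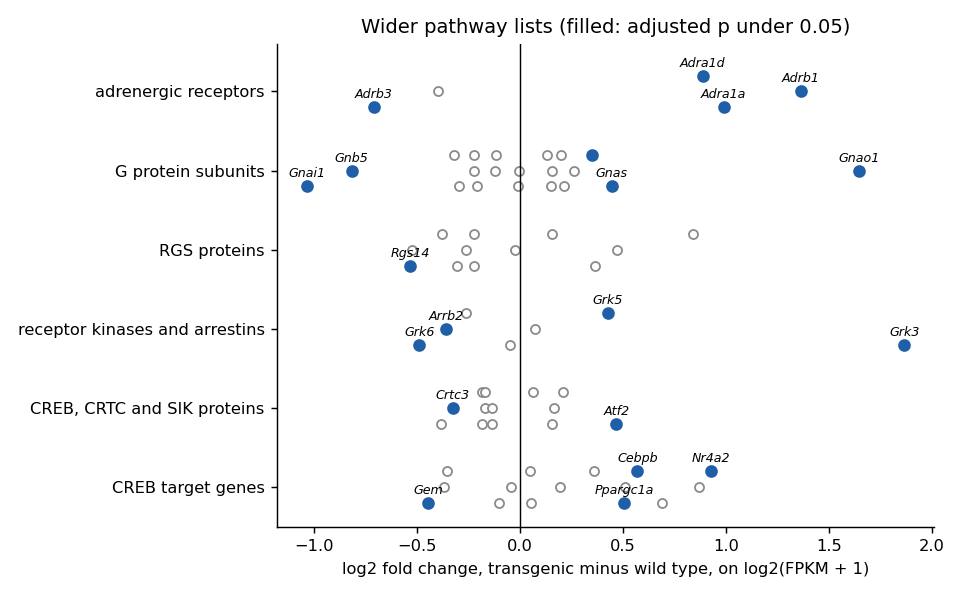
The log2 fold change between transgenic and wild-type iWAT (horizontal axis, on log2(FPKM + 1), n = 3 mice per genotype) of each tested gene in 6 lists of the adrenergic pathway, filled where the adjusted p was under 0.05. *Grk3* at 1.87, *Gnao1* at 1.65 and *Adrb1* at 1.36 lie farthest to the right and *Gnai1* at -1.03 farthest to the left, and most genes of each longer list are unfilled near 0.

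The genes whose profile over the 6 mice was most like that of *Adrb3* were *Pltp*, a phospholipid transfer protein, *Pik3r6* and *Mustn1*. Likeness was the root mean square distance between log2(FPKM + 1) profiles centred on their own means, and it was 0.0736, 0.0918 and 0.0926. Their log2 fold changes were -0.66, -0.76 and -0.70, and the locus of *Pltp* is shared by 3 symbols. Since likeness was measured over the same mice, changes near that of *Adrb3* follow from the choice.

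**Figure D5:**
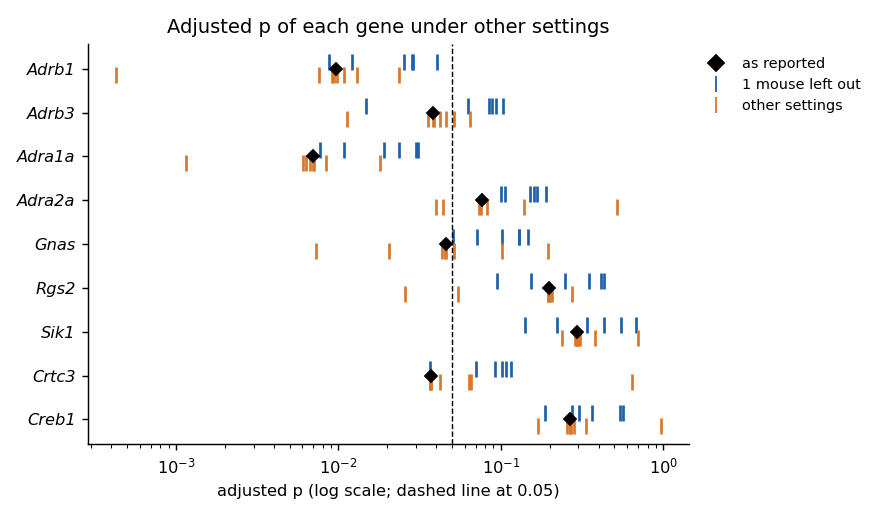
The adjusted p (horizontal log axis) of each of the 9 genes as reported (black diamond), with 1 mouse left out (blue ticks) and under the other fits (orange ticks), with the dashed line at 0.05. All ticks of *Adrb1* and *Adra1a* lie left of the line, those of *Adrb3*, *Gnas* and *Crtc3* fall on both sides of it, a few orange ticks of *Adra2a* and *Rgs2* lie left of it, and those of *Sik1* and *Creb1* lie right of it.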

How the data were processed

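RNA of iWAT of 3 *Hlx* transgenic and 3 littermate control mice was extracted with TRIzol and made into TruSeq v2 libraries. The authors mapped single-end reads of 100 bases to mm10 with TopHat2 2.0.9 and Bowtie2 2.1.0 and quantified genes with Cufflinks 2.2.1 (versions from the submitters' processing notes). The annotation is not given in the sources used here. The values deposited by the authors are FPKM per gene and mouse. Read counts were not used here.

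Loci whose mean reached over 1 FPKM in either genotype (11692) were kept, and log2(FPKM + 1) was fitted without covariates by limma 3.58.1 (R 4.3.3, two-sided moderated test with an intensity trend), with Benjamini-Hochberg adjustment over all of them. Such fold changes understate those of low genes. Ratios per mouse were compared by exact permutation over 20 arrangements. A symbol on several loci was taken from the one with the highest mean. On simulated data for this comparison (11692 loci, normal noise), the fit recovered 93% of 100 3-fold changes and 87% of 100 2-fold changes. Of its calls, 4.26% were false. The changes were placed only in loci above a higher mean level, which *Adrb1*, *Adra2a* and *Crtc3* do not reach. The rates therefore do not cover these genes, nor changes of less than 2-fold, such as those of *Adrb3* and *Gnas*. Fewer loci were changed in the simulation than were called in the data.

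The 9 genes and the gene lists were chosen with earlier results of these data known. Some genes of the lists are not reported here, and the lists, receptor sums and ratios were recomputed without them. Genes named beside the 9 were other receptors, the called genes of each pathway list (at most the 4 largest changes, with *Gna12* added after its value was seen), *Hlx*, and the 3 nearest profiles to *Adrb3*. Markers and *Xist* are named as checks. Alternatives were another pseudocount (0.1), no filter or one on the mean of all mice (the latter added later), quantile, median-ratio and adipocyte marker scaling, eBayes without trend, a replicate block, each mouse left out and a threshold of 0.01. Replicates are separate mice. Figures were drawn with matplotlib 3.10.9.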

Additional observations from a re-analysis of the deposited data

How the results depend on the processing

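*Adrb1* and *Adra1a* kept their direction and their call in all 14 other fits. The median of all loci was -0.01, and centring each mouse on its adipocyte markers moved it to 0.18. In that setting 2153 loci were higher and 237 lower, 90.1% of calls were higher against 62.2% as reported, 1 of the 9 genes was lower, and the log2 fold change of *Creb1* turned to 0.012. This centring moves all log2 fold changes by the same amount. The median of the 9 genes, -0.17 relative to that of all loci, therefore could not move against it. At an adjusted p under 0.01, 569 loci were higher and 199 lower, and 0 of the 9 genes were lower. Without the filter, which adds low loci to the adjustment, 1 of the 9 was lower, *Adra2a*. With each mouse left out, loci called higher ranged from 780 to 1295 and those called lower from 329 to 906, and of the 9 genes 2 were higher in each case and 0 to 2 were lower. Same-numbered mice showed little shared deviation (correlations 0.01, 0.03 and 0.07), where those of differently numbered mice ranged from -0.19 to 0.13. With 3 mice per genotype, this cannot tell whether the numbers pair the mice. With the replicate block, 1230 loci were higher and 656 lower, 3 of the 9 genes were higher and 0 were lower. The adjusted p of *Rgs2* was then 0.0256, and those of *Adrb3*, *Gnas* and *Crtc3* were 0.0514, 0.0515 and 0.0633. The cause of these moves was not tested. Of the values of the 9 genes under other settings, 97 kept their side of the threshold and direction, 24 were no longer past it, 3 passed it only there and 1 turned. The difference in the share of *Adrb3* ranged from -18.1 to -13.3 percentage points with each mouse left out, and that in the log2 ratio of *Adrb1* and *Adrb3* to the α2 receptors from 0.02 to 0.35. Without read counts, the precision of the lowest genes, *Adra2a* among them (not tested with the filter on the mean of all mice), is unknown.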
